A study of Mus musculus with 16 samples.

Results

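The comparison described here sets dexamethasone-treated HL-1 cells against vehicle-treated HL-1 cells on 6 of the 16 arrays of the series. These are the arrays labelled dexamethasone alone or vehicle on which the gene Per1 followed the treatment label. Dexamethasone (Dex) is a synthetic glucocorticoid. The 3 arrays Dex 1, Dex 2 and Dex 4 held RNA from cells given 100 nM Dex, and the 3 arrays Vehicle 1, Vehicle 2 and Vehicle 3 held RNA from cells given the PBS vehicle, each for 6 h. HL-1 is an immortalised line of mouse atrial cardiomyocytes that beats in culture. It was grown in Claycomb medium, and all cells came from this single line, labelled female. The same series has 4 arrays of cells given 10 nM estradiol (E2) and 4 of cells given Dex and E2 together, at the same doses and time. The series gives 4 independent experiments.

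The arrays were chosen by a measured value. Per1 encodes a circadian clock protein and is a well-known direct glucocorticoid target. Its level, given here as log2 of the processed signal over the array's 75th percentile, was 1.91, 1.81 and 1.99 on Dex 1, 2 and 4, against -0.96, -0.75 and -1.11 on Vehicle 1, 2 and 3. Dex 3 was left out because it stood at -1.15, and Vehicle 4 because it stood at 1.75. On the arrays numbered 3 and 4, Per1 followed the array number in all 4 labels. It was -1.15, -1.11, -1.11 and -1.29 on Dex 3, Vehicle 3, Dex+E2 3 and E2 3, and 1.99, 1.75, 1.95 and 1.95 on Dex 4, Vehicle 4, Dex+E2 4 and E2 4. A difference between Dex 4 and Vehicle 3 therefore cannot be told apart from a difference between arrays 4 and arrays 3, and which of these sets of arrays received the hormone is not known from the labels alone. Dex 1 and 2 and Vehicle 1 and 2 lay together on slide 1, where position and label cannot be told apart, while Vehicle 3 lay on slide 2 and Dex 4 on slide 3. Per1 is in none of the counts below.

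Because Per1 chose the arrays, everything that follows Per1 across them was favoured by the choice. The calls on these 6 arrays are therefore given as a description that sorts genes, with no p-value, and the other arrays of the series are set beside them. By label alone, with all 4 Dex and all 4 vehicle arrays, 0 of 17565 genes passed the same threshold in limma, and 1564 had an unadjusted p under 0.05.

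Glucocorticoids act through the glucocorticoid receptor, which moves to the nucleus when it binds hormone, binds DNA directly as a dimer and also restrains other factors such as NF-kB and AP-1. Targets that rise within hours in many cell types include clock genes, metallothioneins, the transcription factors Klf9, Klf15, Cebpb and Cebpd, and inhibitors of kinase and cytokine signalling. In the heart, glucocorticoid signalling through this receptor is known for its part in the maturation of cardiomyocytes and in their energy metabolism.

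The receptor gene was present. Nr3c1, which encodes the glucocorticoid receptor, was 1.81, 1.82 and 1.65 on Dex 1, 2 and 4, against 2.10, 2.25 and 1.96 on Vehicle 1, 2 and 3, and was not called. Nr3c2, encoding the mineralocorticoid receptor, was well above background on 2 of the 3 Dex arrays and all 3 vehicle arrays, at -5.50 ± 0.57 with Dex and -4.93 ± 0.42 with vehicle (SD, n = 3 each). The 9 atrial cardiomyocyte markers reported here, such as Myl7, Myl4, Sln and Nppa, were well above background on all 6 arrays. All 4 smooth muscle markers, Acta2 and Tagln among them, were well above background on the 6 arrays, and their summed linear level was 385 to 458 times the 75th percentile with Dex, against 407 to 467 with vehicle. Of 6 fibroblast markers Col1a1, Col1a2, Pdgfra and Dcn were well above background on all 6 arrays, Tcf21 on 3 and Postn on none. Their summed level was 24.4 to 38.4 with Dex, against 29.0 to 43.6 with vehicle, and Col1a1 was 5.03 ± 0.38 with Dex and 5.11 ± 0.30 with vehicle. Of 5 macrophage markers Cd68 was well above background on all 6 arrays, Csf1r on 3, and Adgre1, Lyz2 and Ptprc on none, with a summed level of 0.0678 to 0.104 with Dex, against 0.0688 to 0.123 with vehicle. Of 5 endothelial markers Kdr and Vwf were well above background on all 6 arrays and Pecam1, Cdh5 and Tek on none. The summed level of these 5 was 1.82 to 2.26 with Dex, against 1.23 to 1.65 with vehicle, and Kdr differed by 0.60 and was not called. In bulk RNA, fewer cells of a type and less RNA per cell cannot be told apart.

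The share of probes well above background ran from 59.3% to 65.0% over the 6 arrays, 0 probes were saturated, and the number of arrays limits the precision. Vehicle 1 stood apart from the other arrays on the second principal component, at 65.7, where the other 15 ranged from -29.3 to 7.12. On Vehicle 1, 88 genes lay more than 4 log2 units below the lowest of the other 5 arrays, as did 26 genes on Vehicle 3 and 0 on each of the other 4, and none of these genes was called. Leaving out Vehicle 1 gave 1582 called genes, of which 229 were higher and 1353 lower with Dex.

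Of 17837 genes tested on the 6 arrays, 203 passed an adjusted p of 0.05 in limma (Benjamini-Hochberg) and are called here, which was 1.14% of them. With Dex 132 genes (0.74%) were higher and 71 (0.398%) lower. Since Per1 picked these arrays, nothing is read from these shares. The median difference was 1.08 on the log2 scale for the genes called higher, -0.95 for those called lower and -0.05 for all genes tested. Of these genes, 5 of the higher were not well above background on any vehicle array and 11 of the lower on any Dex array, so their folds are known only as lower bounds. With those genes at their bounds, a change of at least 2-fold was seen in 74 of the higher and 31 of the lower genes, and one of at least 4-fold in 14 and 4. All 203 genes had Dex and vehicle arrays that did not overlap, as did 26.5% of all genes tested (8.64% with Dex higher and 17.8% with Dex lower). Symbols were available for 118 of the higher and 46 of the lower genes, and the remaining 39 are known here by accession. The number of calls depended on single arrays, with 17 without Dex 1, 19 without Dex 2, 53 without Dex 4 and 96 without Vehicle 2.

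**Figure D1:**
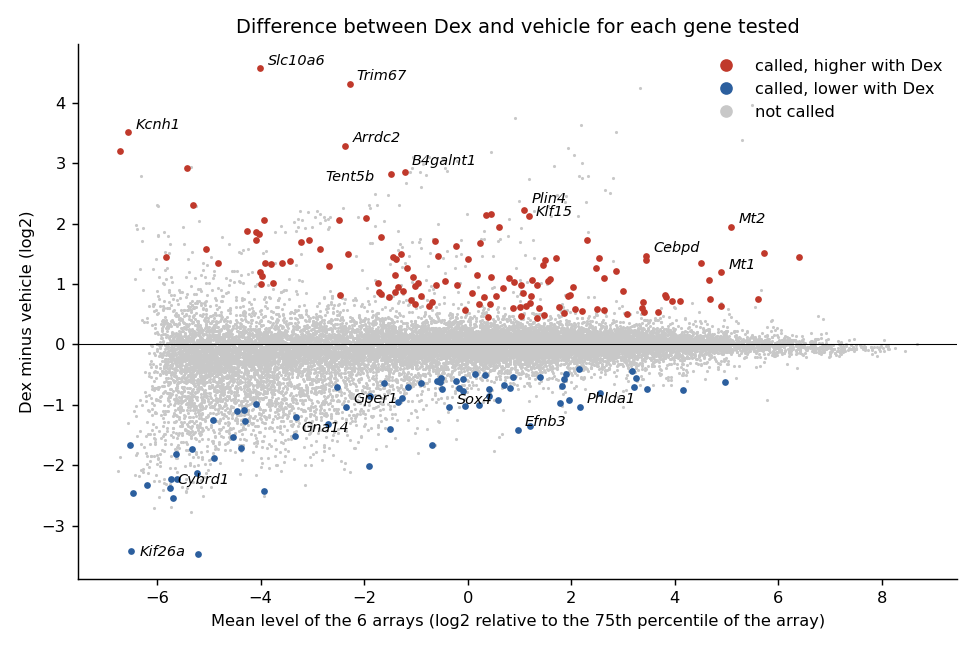
Dex minus vehicle difference (log2, vertical axis) of each gene tested against its mean level over the 6 arrays (log2 relative to the 75th percentile, horizontal axis), with the 132 genes called higher in red, the 71 called lower in blue and the others in grey. Slc10a6 and Trim67 lie highest among the called genes, and grey points above 2 at high levels include genes with a single low vehicle array.

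The transcription factors known as glucocorticoid targets were among the called genes. Klf15, a Kruppel-like factor of amino acid and lipid metabolism, was 2.19, 2.14 and 2.39 on Dex 1, 2 and 4, against 0.15, -0.34 and 0.53 on Vehicle 1, 2 and 3. It was higher with Dex by 2.12 ± 0.21 on the log2 scale (SE), or 4.35-fold, and the lowest Dex array lay well above the highest vehicle array. Cebpd, a C/EBP factor of acute-phase and adipogenic programmes, was 4.20, 4.11 and 4.22 on the Dex arrays, against 2.84, 2.67 and 2.61 on the vehicle arrays, a difference of 1.47 ± 0.09. Its relative Cebpb stood at 0.67, 0.76 and 0.72 with Dex, against -0.68, -0.58 and -0.84 with vehicle, and rose by 1.42 ± 0.09. Klf9, a repressor induced by glucocorticoids and thyroid hormone in many tissues, rose by 0.93 ± 0.10. These were the 4 called of 21 tested C/EBP and Kruppel-like factors, where 0.74% of all genes tested were called higher. The list was chosen with earlier results of these data known. The median of that list was 0.03, and Klf4, Klf2 and Cebpg lay at 0.06, 0.02 and 0.01.

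**Figure D2:**
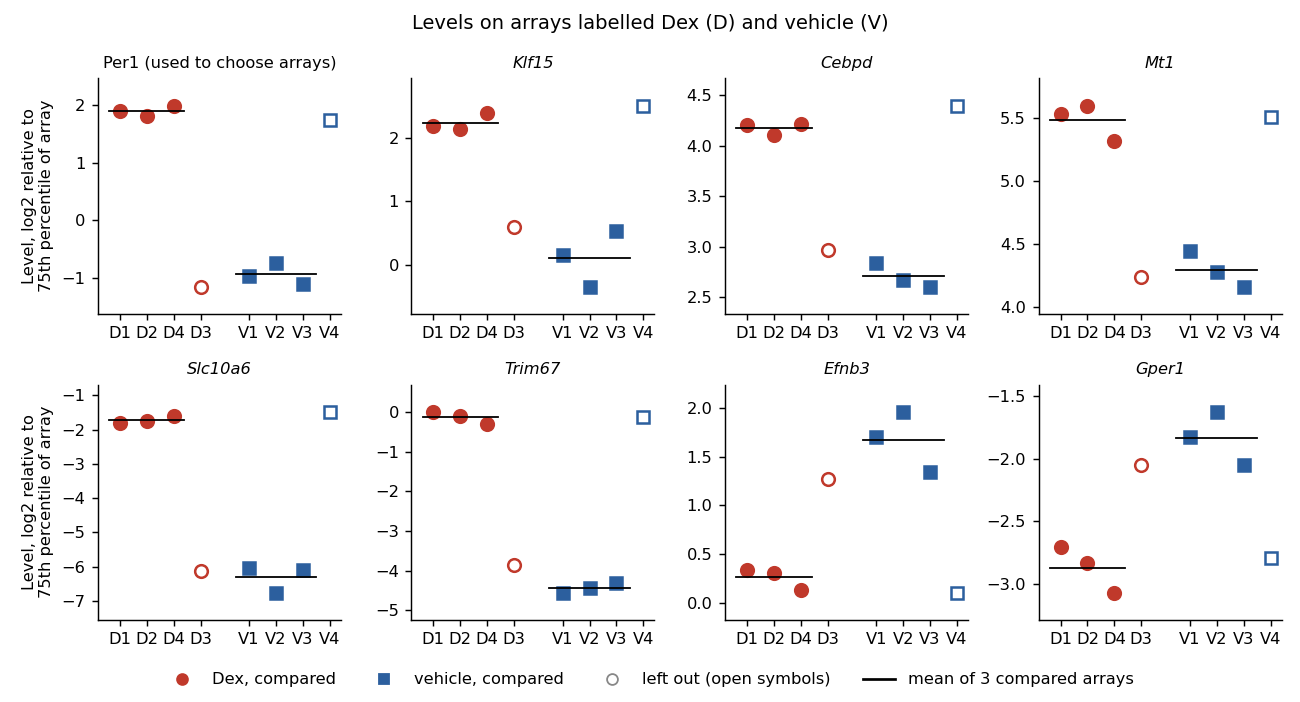
Levels (log2 over the array's 75th percentile) of 8 genes on the arrays labelled Dex (red circles) and vehicle (blue squares), with the 3 compared arrays of each label filled, the left-out array open and black lines at the means of the compared arrays. For each gene Vehicle 4 lies nearer the Dex mean and Dex 3 nearer the vehicle mean.

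The metallothioneins are small proteins that bind zinc and other metals, and both classical members rose. Mt1 was 5.54, 5.60 and 5.32 on Dex 1, 2 and 4, against 4.45, 4.28 and 4.16 on Vehicle 1, 2 and 3, a rise of 1.19 ± 0.11. Mt2 stood at 5.92, 6.02 and 6.26 with Dex, against 4.18, 3.55 and 4.64 with vehicle, and rose by 1.94 ± 0.26. The vehicle arrays spread over more than 1 log2 unit for Mt2, and none reached a Dex array. The other 8 members tested of the list were not called and lay between -0.32 and 0.22. Among them the metallothioneins Mt3 and Mt4, well above background on all 6 arrays, had negative differences of -0.29 and -0.29. The others were zinc transporters and the metal-responsive factor Mtf1. Of all genes tested 0.74% were called higher and 58.2% were negative.

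Of 36 genes widely described as glucocorticoid-induced, 30 were tested, 23 were positive and 12 were called higher, with 0 called lower. Their median was 0.52, where all genes tested had -0.05. Of all genes tested 41.8% were positive, 0.74% were called higher and 0.398% lower. The list was chosen with earlier results of these data known, and the arrays by Per1, itself a glucocorticoid target. Arrdc2, an arrestin-domain protein, was -0.93, -0.91 and -0.33 on the Dex arrays, against -4.08, -4.66 and -3.30 on the vehicle arrays, and rose by 3.29 ± 0.35. Map3k6, a stress-activated kinase, was 1.43 ± 0.07 with Dex and -0.71 ± 0.05 with vehicle (SD, n = 3 each), a 4.40-fold rise with little spread in either group. Tsc22d3, the gene of the anti-inflammatory leucine zipper GILZ, rose by 0.63 ± 0.08. The transcriptional repressor Bcl6, Sesn1, a restrainer of mTORC1, and Errfi1, a feedback inhibitor of the EGF receptor, rose by 0.79, 0.58 and 0.49. Several other well-known targets were not called. Fkbp5, the receptor's own inhibitory co-chaperone, was -0.45, -0.42 and 0.24 on the Dex arrays, against -1.30, -1.32 and -0.75 on the vehicle arrays, with a difference of 0.92 ± 0.23. Per2, Nfkbia, Pdk4 and Sgk1 had differences of 0.98, 0.62, 0.52 and 0.21. Dusp1, Tat and Angptl4 had negative ones of -0.30, -0.64 and -0.91, where 58.2% of all genes tested were negative.

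Neither the receptors and chaperones nor the clock held a called gene, where 1.14% of all genes tested were called. Among 18 receptors, chaperones and coregulators tested the median was -0.01, and Hsd11b1, the enzyme that regenerates active glucocorticoid, differed by 0.11 ± 0.15. Among 19 clock genes other than Per1 the median was -0.05. Per2, Hlf and Cry2 had the highest values, at 0.98, 0.79 and 0.76, and Nr1d1, which encodes the repressor REV-ERB alpha, the lowest at -0.67.

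**Figure D3:**
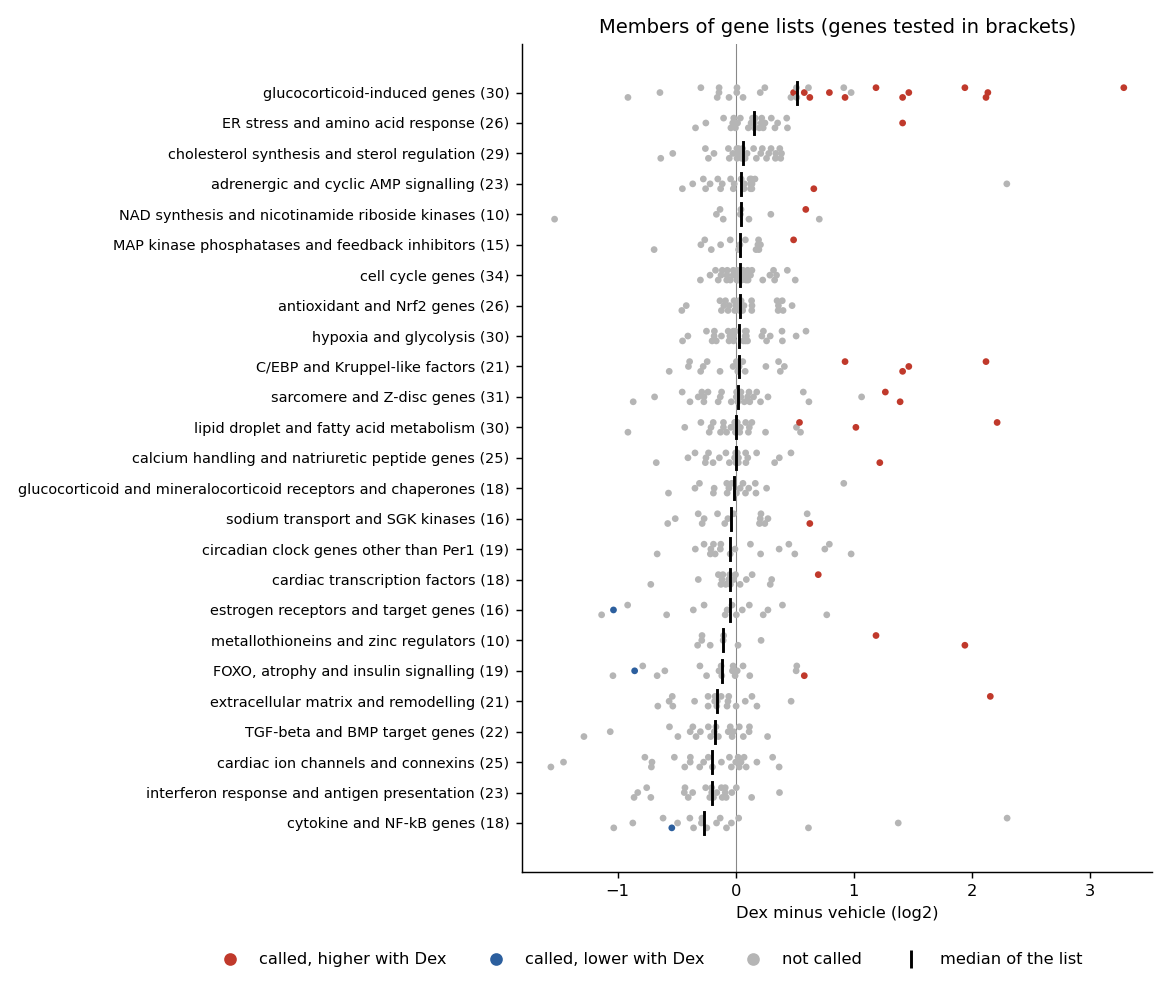
Dex minus vehicle differences (log2, horizontal axis) of the members of 25 gene lists, sorted by median (black bars), with called genes in red (higher) or blue (lower) and the others in grey. The glucocorticoid-induced list has the highest median, 0.52, and the cytokine and NF-kB list the lowest, -0.27.

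Promoter sequence was available from RefSeq (GRCm38.p6) for 95 of the 118 named higher genes, 32 of the 46 named lower genes and 10413 tested genes in all, as windows of 250 bases before to 50 bases after the start site. The glucocorticoid receptor dimer is known to bind inverted repeats that resemble ACANNNTGT, which reads the same on both strands. This 9-base pattern was in 7 of the higher windows (7.37%), 3 of the lower windows (9.38%) and 530 of all windows (5.09%). The 7 higher genes with the pattern were Slc10a6, Map3k6, Mt1, Ece1, Phyhd1, Art3 and Pfkfb1. The 250 bases before the start site are shown for the largest increase, for Map3k6 and Mt1, and for Klf15, whose window has no match, with matches in capitals. Slc10a6 lies on the minus strand at chr5:103629404-103629653, with the match starting at -161. Map3k6 is on the plus strand at chr4:133240568-133240817, with the match at -179. Mt1 is on the plus strand at chr8:94178839-94179088, with the match at -92. Klf15 is on the plus strand at chr6:90462326-90462575.
Slc10a6: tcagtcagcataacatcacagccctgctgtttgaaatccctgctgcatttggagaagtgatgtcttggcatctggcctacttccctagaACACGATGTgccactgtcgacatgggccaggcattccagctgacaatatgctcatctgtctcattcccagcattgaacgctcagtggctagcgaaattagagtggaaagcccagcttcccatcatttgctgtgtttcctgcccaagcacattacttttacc
Map3k6: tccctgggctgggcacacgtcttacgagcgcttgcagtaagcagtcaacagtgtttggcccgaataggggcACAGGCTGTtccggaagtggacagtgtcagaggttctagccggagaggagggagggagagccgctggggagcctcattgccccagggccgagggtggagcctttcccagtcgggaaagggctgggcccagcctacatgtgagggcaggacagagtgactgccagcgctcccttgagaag
Mt1: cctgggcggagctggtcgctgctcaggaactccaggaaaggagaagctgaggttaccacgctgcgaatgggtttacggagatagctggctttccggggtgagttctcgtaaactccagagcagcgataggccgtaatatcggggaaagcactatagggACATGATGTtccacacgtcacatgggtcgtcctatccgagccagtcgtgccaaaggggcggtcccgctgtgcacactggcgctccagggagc
Klf15: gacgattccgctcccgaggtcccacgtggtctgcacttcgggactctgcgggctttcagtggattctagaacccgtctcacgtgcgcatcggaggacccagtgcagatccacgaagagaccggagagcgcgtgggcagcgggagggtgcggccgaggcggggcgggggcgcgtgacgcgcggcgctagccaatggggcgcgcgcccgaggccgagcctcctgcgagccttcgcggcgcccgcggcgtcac
A match describes letters in the window, and its absence says nothing about binding elsewhere.

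The largest increases by fitted difference were in genes of varied roles. Slc10a6, a carrier of sulphated steroids, was -1.82, -1.75 and -1.60 on Dex 1, 2 and 4, against -6.03, -6.76 and -6.08 on Vehicle 1, 2 and 3. It was well above background on 1 of the 3 vehicle arrays, so the fitted difference of 4.57 ± 0.23, or 23.7-fold, takes the other 2 at signals near background. Trim67, an E3 ubiquitin ligase best known from neurons, was 0.01, -0.08 and -0.31 with Dex, against -4.55, -4.43 and -4.32 with vehicle, 19.8-fold higher with Dex. B4galnt1, the ganglioside GM2 synthase, rose by 2.85 ± 0.25, and Tent5b, a poly(A) polymerase of the TENT5 family, by 2.83 ± 0.14. Adamts1, a secreted protease that cleaves proteoglycans, stood at 1.53 ± 0.02 with Dex and -0.63 ± 0.37 with vehicle (SD, n = 3 each). It was the called member of 21 tested matrix genes, where 1.14% of all genes tested were called. Lrg1, a secreted glycoprotein that modulates TGF-beta signalling, rose by 2.09 ± 0.19. Kcnh1, which encodes a voltage-gated potassium channel, Dgkb, a diacylglycerol kinase, Ntsr2, a neurotensin receptor, and Thsd7a, a membrane protein with thrombospondin repeats, were not well above background on any vehicle array. They were at least 2.78-fold, 2.24-fold, 4.33-fold and 4.95-fold higher with Dex, bounds for which each vehicle array was given the dimmest signal that still counted as well above background, or the probe's signal if that was brighter.

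Lipid genes rose in a small group. Plin4, which coats nascent lipid droplets, was 2.42, 2.27 and 1.92 on the Dex arrays, against -0.21, 0.27 and -0.09 on the vehicle arrays, a 4.65-fold rise. Plin5, a droplet protein of oxidative tissues, and Acsl1, which activates long-chain fatty acids, rose by 1.02 ± 0.16 and 0.54 ± 0.09. These were 3 of 30 lipid genes tested, where 0.74% of all genes tested were called higher. The median of the lipid genes was 0.00, and the beta-oxidation genes Hadha, Acadm and Cpt2 lay at 0.00, 0.00 and 0.14. Sphk1, which makes sphingosine 1-phosphate, was -1.49, -1.42 and -1.42 with Dex, against -3.45, -3.50 and -3.58 with vehicle, a 4.18-fold rise. Beside these genes, the summed level of the 4 adipocyte markers was 0.279 to 0.331 with Dex and 0.147 to 0.208 with vehicle. Fabp4 was the measured one, and Adipoq, Plin1 and Lep were at background.

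**Figure D4:**
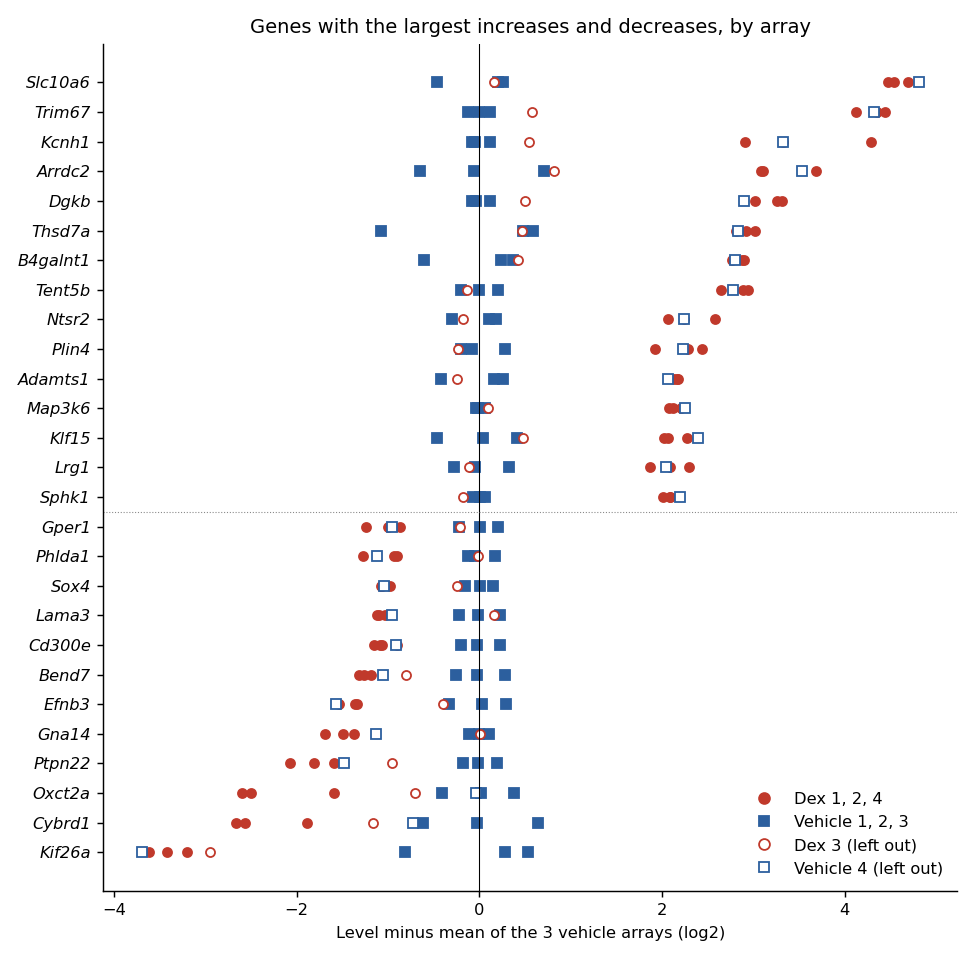
Level of each array minus the mean of the 3 vehicle arrays (log2, horizontal axis) for the 15 largest named increases and the 12 largest named decreases, with Dex 1, 2 and 4 as filled red circles, Vehicle 1, 2 and 3 as filled blue squares, and the left-out Dex 3 and Vehicle 4 as open symbols. For the increases Vehicle 4 lies among the Dex arrays and Dex 3 near the vehicle arrays. Among the decreases, Dex 3 lies nearer the Dex mean for Kif26a, Cd300e, Bend7 and Ptpn22. Vehicle 4 lies nearer the vehicle mean for Cybrd1 and Oxct2a.

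A few genes of the contractile cell rose as well. Myh7, the slow beta-myosin heavy chain, was 2.38, 2.31 and 1.90 on Dex 1, 2 and 4, against 1.06, 0.40 and 0.94 on Vehicle 1, 2 and 3, and rose by 1.39 ± 0.20. Myoz2, a Z-disc protein that binds calcineurin, rose by 1.27 ± 0.15. Sln, sarcolipin, the atrial inhibitor of the sarcoplasmic calcium pump, was 3.57, 3.63 and 3.23 with Dex, against 2.53, 2.03 and 2.22 with vehicle, a rise of 1.22 ± 0.16. Gata6, a cardiac transcription factor, and Adcy5, the main adenylyl cyclase of the heart together with Adcy6, rose by 0.70 ± 0.12 and 0.66 ± 0.11. Myh7 and Myoz2 were 2 of 31 sarcomere genes tested, where 0.74% of all genes tested were called higher, and the list's median was 0.02. The fast atrial chain gene Myh6 differed by 0.62 and was not called, and Tnnt2 and Actc1 lay at 0.00 and 0.01. Of 25 cardiac ion channel and connexin genes 0 were called and 9 were positive, where 1.14% and 41.8% of all genes tested were. The median of this list was -0.20, with Cacna1g at -1.57 and Gja5 at -1.46. Nampt, the enzyme that salvages nicotinamide into NAD, rose by 0.59 ± 0.09.

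The genes called lower included membrane ligands, matrix proteins and signalling subunits. Efnb3, a membrane-bound ligand of Eph receptors, was 0.34, 0.31 and 0.14 on the Dex arrays, against 1.71, 1.96 and 1.34 on the vehicle arrays, and fell by 1.41 on the log2 scale. Sox4, a developmental transcription factor, stood at -0.82, -0.91 and -0.90 with Dex, against 0.17, 0.31 and 0.01 with vehicle, and Phlda1, a pleckstrin homology-like protein, at 1.78, 1.75 and 1.41 against 2.86, 2.63 and 2.56. Gna14, a G protein alpha subunit of the Gq class, fell by 1.52, and Lama3, a laminin chain, by 1.08. Igfbp5, an IGF-binding protein, fell by 0.86. Cd300e, an immune receptor of myeloid cells, and Bend7, a BEN-domain protein, fell by 1.10 and 1.25. Kif26a, an atypical kinesin, Cybrd1, a ferric reductase, Oxct2a, an enzyme of ketone use, and Ptpn22, a tyrosine phosphatase of lymphocytes, were not well above background on the 3 Dex arrays. They were at least 2.73-fold, 3.22-fold, 3.38-fold and 2.82-fold lower with Dex. Kif26a was -8.21 ± 0.21 on the Dex arrays and -4.80 ± 0.72 on the vehicle arrays (SD, n = 3 each). It was also low, between -8.49 and -7.39, on Dex 3, Vehicle 4, E2 2, 3 and 4 and all 4 Dex+E2 arrays, so its level did not follow Per1 over the series. Other decreases departed from Per1 on the left-out arrays. Vehicle 4 was at -4.52 for Oxct2a and -5.29 for Cybrd1, nearer the vehicle mean. Dex 3 was at -4.81 for Cd300e, -5.09 for Bend7 and -5.68 for Ptpn22, nearer the Dex mean.

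Among cytokine and NF-kB genes, 4 of 18 tested were positive and the median was -0.27. Relb, a subunit of the non-canonical NF-kB dimer, was the called member, at 1.15, 1.02 and 1.18 with Dex, against 1.63, 1.59 and 1.76 with vehicle. Cxcl10 and Il6 had differences of -1.03 and -0.87 and were not called. The highest difference in the list was 2.30, also in a gene not called. On Dex+E2 1 and 2 against E2 1 and 2, 17 genes of the list were tested. There 2 were called higher and 1 lower, where 1.15% and 0.429% of all genes were. Of 23 interferon response and antigen presentation genes 3 were positive, 0 were called and the median was -0.20. Of 22 TGF-beta and BMP genes 5 were positive, 0 were called and the median was -0.17. Of all genes tested 41.8% were positive, with a median of -0.05. When arrays were scaled to their median instead, the median of all genes was 0.17, and that of the cytokine and NF-kB list was -0.05, and those of the interferon, TGF-beta and ion channel lists were 0.01, 0.04 and 0.02. The last 3 lie above 0, and all 4 lie below the median of all genes.

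The estrogen receptors were examined because the series combines Dex with E2. Gper1, encoding the G protein-coupled estrogen receptor, was -2.71, -2.84 and -3.07 on Dex 1, 2 and 4, against -1.83, -1.63 and -2.05 on Vehicle 1, 2 and 3. It fell by 1.04 on the log2 scale (SE 0.16), and the groups did not overlap. Esr2, encoding estrogen receptor beta, was -2.42 ± 0.22 with Dex and -1.83 ± 0.06 with vehicle (SD, n = 3 each) and was not called. Esr1, encoding estrogen receptor alpha, stayed at background on all 6 arrays and was not tested. Gper1 was the called gene among 16 estrogen receptor and target genes tested, whose median was -0.05. Of all genes tested 1.14% were called.

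No gene was called among the cell cycle (34 tested, median 0.04), hypoxia and glycolysis (30, 0.03), cholesterol synthesis (29, 0.06) and antioxidant genes (26, 0.03). Of all genes tested 1.14% were called and 41.8% were positive. The ER stress list had 19 of 26 tested genes positive, a median of 0.16 and 1 called gene, Cebpb, which also counts as a C/EBP factor. Calcium handling, adrenergic, sodium transport, MAP kinase phosphatase, NAD and cardiac transcription factor lists had 1 called gene each, all named above, with medians between -0.05 and 0.05. The FOXO list had Sesn1 higher and Igfbp5 lower, with a median of -0.12, or 0.10 with arrays scaled to their median.

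The left-out arrays were close to the opposite label. Vehicle 4 lay nearer the Dex mean for 199 of the 203 called genes, and Dex 3 nearer the vehicle mean for 170, with 32 nearer the Dex mean and 1 not measured there. As a median over the 132 higher genes, the share of the vehicle-to-Dex distance was 0.99 on Vehicle 4 and 0.09 on Dex 3. Over the 71 lower genes it was 0.95 on Vehicle 4 and 0.25 on Dex 3. The median difference of the higher genes was 1.13 within slide 1 and 1.03 between Dex 4 and Vehicle 3. For the lower genes it was -0.93 within slide 1 and -0.96 between Dex 4 and Vehicle 3. On slide 1 alone, 46 genes were called, 37 of them among the 203. The 203 genes were called from these same compared arrays. Like differences in both parts, and shared calls on slide 1, were therefore favoured by the choice of genes.

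**Figure D5:**
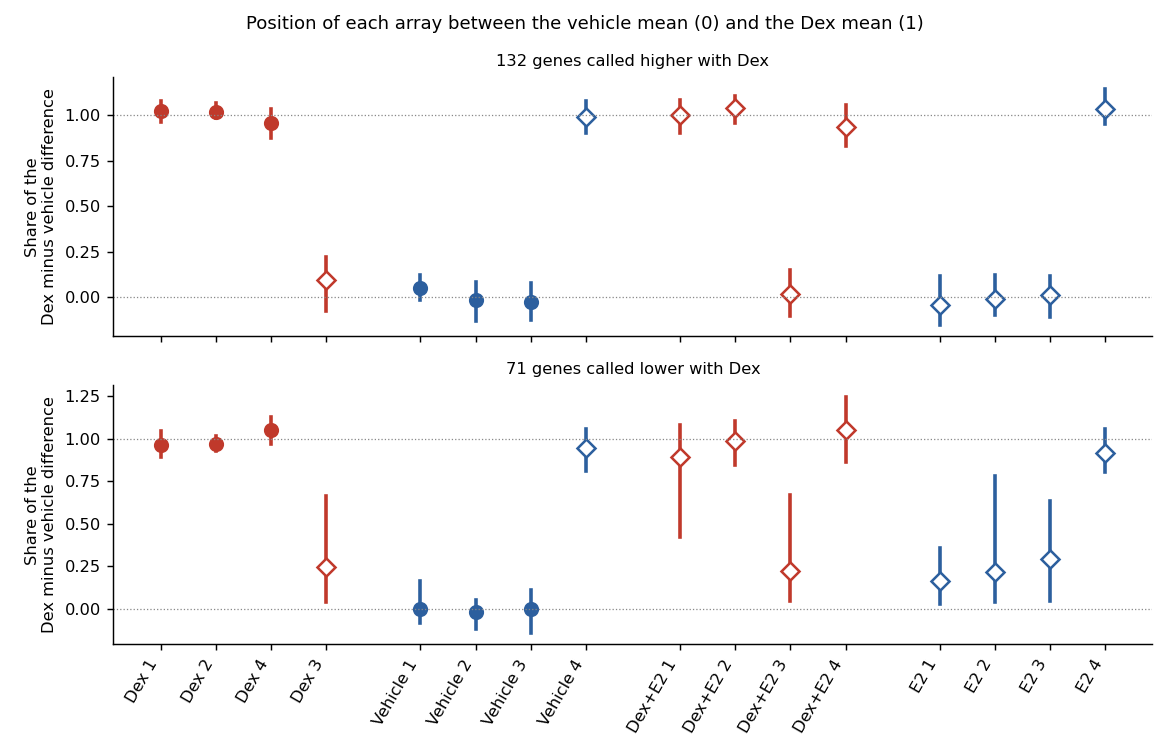
Position of each of the 16 arrays between the mean of the 3 vehicle arrays (0) and the mean of the 3 Dex arrays (1), as the median (symbol) and the middle 50% (line) over the called genes, with compared arrays filled, other arrays open, and red for labels with Dex. Among the arrays not compared, Vehicle 4, Dex+E2 1, 2 and 4 and E2 4 lie near 1 for the higher genes, and Dex 3, Dex+E2 3 and E2 1, 2 and 3 near 0.

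Dex+E2 and E2 arrays were not used to choose the genes and share no array with the comparison above. Over the 132 higher genes, the median share of the vehicle-to-Dex distance was 1.00, 1.04, 0.02 and 0.93 on Dex+E2 1 to 4, against -0.04, -0.01, 0.01 and 1.03 on E2 1 to 4. Over the lower genes it was 0.90, 0.99, 0.22 and 1.05 on Dex+E2 1 to 4, against 0.16, 0.22, 0.29 and 0.92 on E2 1 to 4. Arrays 3 and 4 again followed the array number. With all 8 arrays by label, 0 of 17231 genes were called in limma (0%), and 677 had an unadjusted p under 0.05. The difference was positive for 127 of 127 higher genes tested there and negative for 59 of 61 lower genes, where 49.4% of all genes were positive and 50.6% negative. Klf15, Cebpd and Mt1 differed there by 1.15 ± 0.61, 0.80 ± 0.44 and 0.59 ± 0.35 (SE), each with an adjusted p of 0.926.

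On arrays numbered 1 and 2 Per1 followed the label under all 4 labels, so restricting to them was again a choice made with Per1 known, and Dex+E2 1 and 2 lay on slide 3 while E2 1 and 2 lay on slide 2, so slide and label cannot be told apart there. In that comparison 276 of 17489 genes were called (1.58%), 201 higher (1.15%) and 75 lower (0.429%) with Dex+E2. Of the 132 higher genes 130 were tested and all 130 were positive, where 59.8% of all genes were. Called higher were 92, which is 69.7% of the Dex list and 45.8% of the 201. Of the 71 lower genes 62 were tested, 56 were negative, where 40.2% of all genes were, and 16 were called lower, which is 22.5% of the Dex list and 21.3% of the 75. None was called in the opposite direction. The sign differed for 5 genes without a symbol and for Bend7. Each gene was read by its brightest probe among those that passed in that comparison, which was another probe for Bend7, Kif26a and Ntsr2. Their tested differences there were 0.06, -0.56 and 0.67, while the probes called in Dex against vehicle had mean differences of -0.41, -1.47 and 2.53 on the same 4 arrays, with no test. Over genes read by the same probe, 129 of 129 higher genes were positive and 55 of 60 lower genes negative.

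The leading genes had similar values on these arrays. Klf15 was 2.25 and 2.32 on Dex+E2 1 and 2, against -0.15 and 0.02 on E2 1 and 2, a difference of 2.35 ± 0.09. Trim67 was -0.01 and 0.05 on Dex+E2 1 and 2, against -5.09 and -4.77 on E2 1 and 2, and differed by 4.95 ± 0.15. Cebpd, Mt1, Slc10a6 and Arrdc2 differed by 1.72, 1.38, 4.42 and 2.99, and all 6 were called. Dgkb, by contrast, was -4.36 and -6.50 on Dex+E2 1 and 2, against -6.61 and -7.42 on E2 1 and 2, and reached -4.84 on E2 3, so it varied within the label. Of the largest decreases, Gna14 differed by -0.85 and was not called, Kif26a was not called on its other probe, and Cybrd1, Oxct2a and Ptpn22 were not tested. Efnb3 and Sox4 were called lower, by 1.74 and 1.26 on the log2 scale. Gper1 and Adcy5 differed by -0.72 and 0.09, and neither was called. Among the glucocorticoid-induced genes 24 of 30 were positive and 14 were called higher there, where 59.8% and 1.15% of all genes were. This list was chosen with earlier results of these data known, and these arrays with Per1 known.

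In addition, 16 genes were called each time 1 of the 6 compared arrays was left out, a set chosen after its values were seen. They were Slc10a6, Trim67, Tent5b, Plin4, Adamts1, Map3k6, Sphk1, Wipf3, Adarb1, Crispld2, Cebpd, Pdzd2, Noct and Cebpb, with 2 genes known by accession. Adarb1, an RNA-editing deaminase, stood at 3.25, 3.23 and 3.01 with Dex, against 1.47, 1.68 and 1.18 with vehicle. Noct, a clock-controlled phosphatase of NADP cofactors, stood at 3.25 ± 0.13 with Dex and 1.83 ± 0.11 with vehicle (SD, n = 3 each). Crispld2, a secreted protein known to be induced by glucocorticoids in human airway smooth muscle, was at 0.22, 0.21 and 0.21 with Dex, against -1.33, -1.69 and -1.45 with vehicle. The fold rises of these 3 were 3.30, 2.68 and 3.26, each with Dex arrays that spread by less than the distance to the nearest vehicle array.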

How the data were processed

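Single-colour Agilent arrays measured Cy3-labelled cRNA from total RNA, per the labels' protocols. The deposited scanner files hold each spot's background-subtracted processed signal, an intensity on a linear scale per the file headers, and the submitters' processing notes name Agilent Feature Extraction version 12 as the software. A deposited table of log2 values of the same 16 arrays served as an alternative. Its columns each had a median of 4.698 and correlated best with their own array (lowest r = 0.999), and the sources used here do not give the authors' method for it.

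Control spots and spots with an outlier flag were left out, spots of a probe were averaged, and levels are log2 of the processed signal relative to the array's 75th percentile. Probes stayed in when all 3 Dex or all 3 vehicle arrays were well above background, and a gene was its brightest kept probe. Of 41174 probes, 28223 were named through RefSeq accessions (GRCm38.p6), and 12951 kept their accession. Replicate arrays were checked for duplicates, and all differed beyond the noise between replicate spots. Dex 1 and Dex 2 lay closest, with a median absolute log2 difference of 0.054 over probes spotted several times. Dex 4 differed by 0.18 from Dex 1 and by 0.16 from Dex 2. Whether Dex 1 and Dex 2 vary as separate experiments would was not tested, and the Dex SDs and the SEs rest on that. The test was limma 3.58.1 (lmFit, eBayes with a trend) in R 4.3.3, two-sided, with Benjamini-Hochberg adjustment and a threshold of 0.05. It was tested on simulated data. Per1 stayed in the fit and out of the counts. A scanner column of mean signals was not used here, so normexp was run on median signals.

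The arrays, genes and lists were chosen with earlier results of these data known. Named are the 15 largest increases and 12 largest decreases among called genes with symbols, up to 4 called members per list, a fixed receptor and target panel, and others said to be chosen after their values were seen. Alternatives were other scalings, filters, probe summaries, variance priors, slide and replicate blocks, and leaving out each array. Some measured genes are not reported here.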

Additional observations from a re-analysis of the deposited data

Results flagged for a closer look

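Among 13 genes followed onto the Dex+E2 and E2 arrays, 26 groups of 4 arrays were tested for a single array far from the other 3 (Dixon's test at 95%). Chance flags about 1 in 20 such groups when they are independent. These groups are not, since the genes share the same arrays. The genes were the markers and largest differences above, followed with Per1 on these arrays known, so the flags are given as a description. On Dex+E2 3, 6 genes stood far below the other Dex+E2 arrays. Klf15 was 0.54 there, against 2.25 to 2.51 on the others, and Cebpd 3.01 against 4.07 to 4.25. Slc10a6 was -7.06 against -2.10 to -1.59, Trim67 -4.05 against -0.25 to 0.05, Kcnh1 -8.25 against -5.22 to -4.93, and Arrdc2 -4.09 against -0.91 to -0.60. On E2 4, 4 genes stood far above the other E2 arrays, with Mt1 at 5.47 against 4.12 to 4.25, Trim67 at 0.06 against -5.09 to -4.58, Kcnh1 at -4.89 against -8.31 to -7.76, and Arrdc2 at -0.51 against -3.87 to -3.67. On E2 2, Cybrd1 was -7.66 against -5.78 to -5.42, and Oxct2a -7.57 against -5.89 to -5.54. Neither gene was well above background on any compared Dex array, where their lowest levels were -7.22 and -7.08. These E2 2 levels therefore lie near background. The low Kcnh1 levels likewise lie near those of the compared vehicle arrays, on which Kcnh1 was not well above background. Per1 was -1.11 on Dex+E2 3 and 1.95 on E2 4, and whether these arrays carry the label of their RNA was not tested.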

How the results depend on the processing

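On the 6 arrays 203 genes were called, 132 higher and 71 lower with Dex. Scaling to the array median gave 317 (215 higher) with a median difference of all genes of 0.17, against -0.05 otherwise. No filter on dim probes gave 105 (80 higher, 25 lower). Slide as a random block (correlation 0.463) gave 573 (250 higher, 323 lower), which include all 203. Slide 1 alone gave 46 (38 higher, 8 lower). All 8 arrays by label gave 0, with and without the replicate block, with 2098 and 1564 genes at an unadjusted p under 0.05. Leaving out each array in turn gave 17 to 1582 calls, 17 to 229 higher and 0 to 1353 lower. Quantile and normexp normalization, the deposited table, the stricter background filter, the mean over probes, no variance trend and Per1 left out before the fit kept the count within 1.5 times, between 160 and 266. Numbers 1 and 2 occur in both groups, with deviations correlated at 0.06 and 0.14 (0.07, 0.17, 0.02 and 0.31 for numbers 1 to 4 over all 8 arrays), which does not establish that the numbers pair the arrays, and the replicate block gave 20 calls (19 higher, 1 lower), 18 of them among the 203. For Dex+E2 against E2 by label, leaving out each array gave 0 to 2 calls, arrays 1 and 2 alone gave 276, and the replicate block, slide block, quantile and no-trend fits gave 0. Of the differences of named genes under an alternative, 741 kept their direction and side of the threshold, 353 lost the call, 2 gained one and 2 turned negative without Vehicle 3, Sgk1 at -0.039 (range over arrays left out -0.039 to 0.38) and Hsd11b1 at -0.051 (-0.051 to 0.23), neither called. The cause of these differences between settings was not tested. Probes near background limit the folds given as bounds.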

Other observations

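Genes of vasoactive and lipid mediator signalling were also among the called genes, a group chosen after its values were seen. Agt, which encodes angiotensinogen, was -3.14, -3.07 and -3.20 on Dex 1, 2 and 4, against -4.45, -4.19 and -4.77 on Vehicle 1, 2 and 3, and its receptor gene Agtr1a was -0.68, -0.70 and -0.78 against -1.38, -1.59 and -1.40. Ece1, the endothelin-converting enzyme, and Ednrb, an endothelin receptor, rose by 1.19 and 0.84 on the log2 scale. Nt5e, which makes adenosine outside the cell, rose by 1.03, and Cav1 and Cav2, the coat proteins of caveolae, by 1.07 and 0.43. S1pr2, a receptor for sphingosine 1-phosphate, and Cysltr1, a leukotriene receptor, fell by 0.62 and 0.63. On Dex+E2 1 and 2 against E2 1 and 2, Agt, Agtr1a, Ece1, Nt5e and Cav1 were called higher, by 1.54, 0.92, 1.38, 1.30 and 0.97, and S1pr2 was called lower, with a difference of -0.71. Ednrb, Cav2 and Cysltr1 had differences of 0.57, 0.33 and -0.64 there and were not called.

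Immediate-early and developmental regulators were called in both directions, again chosen after their values were seen. Egr1, an immediate-early zinc finger factor, was 0.13, 0.27 and -0.03 on the Dex arrays, against 1.02, 1.17 and 0.94 on the vehicle arrays. Hes1, a Notch target, and Pdgfa, a growth factor, fell by 0.89 and 0.70. Zfp36, which destabilises cytokine mRNAs, and Cited2, a transcriptional coregulator, rose by 0.56 and 0.69. On Dex+E2 1 and 2 against E2 1 and 2, Hes1 was called lower, with a difference of -1.12, while Egr1, Pdgfa, Zfp36 and Cited2 had differences of -0.58, -0.46, 0.38 and 0.45 and were not called.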
